A study of Mus musculus with 19 samples.

Results

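The genes described here build the kinetochore, run the spindle assembly checkpoint and drive mitosis as kinases, together with the proliferation markers Mki67 and Top2a. They were chosen by symbol: every listed gene with a Cenp symbol of the form Cenp and a letter, plus 24 genes named one by one, kept if their level reached 1 FPKM (fragments mapped to a gene, scaled by transcript length and library size) in at least 3 of the 19 libraries. The rule named 42 listed symbols and kept 41 of the 22193 genes in the deposited tables, of which 14591 passed the same level. The gene left out was Cenpp, listed at 0 in all 19 libraries. The kept genes nearest the limit, such as Cenpi and Bub1, reached 1 FPKM in 15 libraries. The rule uses symbols and a level, and it was drawn up with earlier results of these data known.

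RNA was sequenced from the whole cerebellum of C57BL/6 mice at postnatal day 60. The wild-type group (Ctrl) had 3 mice. In 8 mice (Olig1-Gnas) a conditional allele of Gnas, which encodes the stimulatory G protein subunit Gsα, had been deleted by Cre recombinase under Olig1 control, and in 8 others (hGFAP-Gnas) by Cre under a human GFAP promoter. Olig1 is a transcription factor gene of the oligodendrocyte lineage that is also active in some neural progenitors, and the human GFAP promoter is active in radial glia, so deletion marks cells with a history of promoter activity and not one cell type. The series concerns how loss of Gsα bears on medulloblastoma, a cerebellar tumor in which the Sonic hedgehog pathway can be active, and the deposited table of hGFAP-Gnas carries the word tumor in its name. The comparisons ask how each knockout cerebellum differed from wild type and from the other knockout.

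At mitosis, the histone variant CENP-A marks the centromere, and a network of inner kinetochore proteins assembles on it. The outer kinetochore, with the NDC80 complex at its core, attaches the chromosome to spindle microtubules. Unattached kinetochores keep the spindle assembly checkpoint on, which holds back CDC20, the activator of the anaphase-promoting complex, until every chromosome is attached; securin is then destroyed and separase cuts cohesin. Most of these genes are transcribed in the later part of the cell cycle, and the granule neurons that make up most of the adult mouse cerebellum no longer divide.

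Facts of the whole series bear on the values below. Gnas itself was listed at 0 in 1 of 3 Ctrl libraries and in 3 of 8 Olig1-Gnas libraries in their table, and in 2 of 3 Ctrl and 7 of 8 hGFAP-Gnas libraries in the other. Where it was above 0 it stood at 651 and 798 FPKM in Ctrl, at 24.1 to 121.5 in Olig1-Gnas and at 40.9 in hGFAP-Gnas; an exact 0 can be a failed estimate, so Gnas was only a partial check of the labels. The depth in reads is unknown; depth relative to Ctrl 2, inferred from the lowest values, was 0.841 to 1.06 in 10 libraries (Ctrl 1 and 2, Olig1-Gnas 5 to 8, hGFAP-Gnas 1 to 4) and 0.270 to 0.432 in the other 9. The library hGFAP-Gnas 1 stood apart, close to Ctrl in both these genes and in neuronal markers, and results for its group are also given without it. With quantile normalization of the libraries, the median log2 difference of all genes tested moved from 0.22 to 0.06 for Olig1-Gnas and from 0.19 to -0.01 for hGFAP-Gnas, and the share of called genes that were higher than Ctrl moved from 60.5 to 50.6% and from 67.1 to 49.0%.

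The set rose almost as a whole in both knockouts. The median level of the 41 genes was 0.620 to 0.839 FPKM in the Ctrl libraries. In Olig1-Gnas it was 26.8 at the lowest, 34.3 at the median and 46.3 at the highest library, and in hGFAP-Gnas 1.82, 26.6 and 37.0. Every knockout library thus lay above every Ctrl library, with hGFAP-Gnas 1 far below the other 7, which began at 16.0. The heat map of levels shows this as a dark Ctrl block, 1 dark hGFAP-Gnas column and 15 bright columns. Of the 41 genes, 25 passed the limit of 1 FPKM only through knockout libraries, so part of this contrast was built into the rule. The other 16 had smaller median log2 differences from Ctrl, 2.05 in Olig1-Gnas and 1.44 in hGFAP-Gnas. In whole tissue, a change in the number of cells of a type and a change in RNA per cell cannot be told apart.

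**Figure D1:**
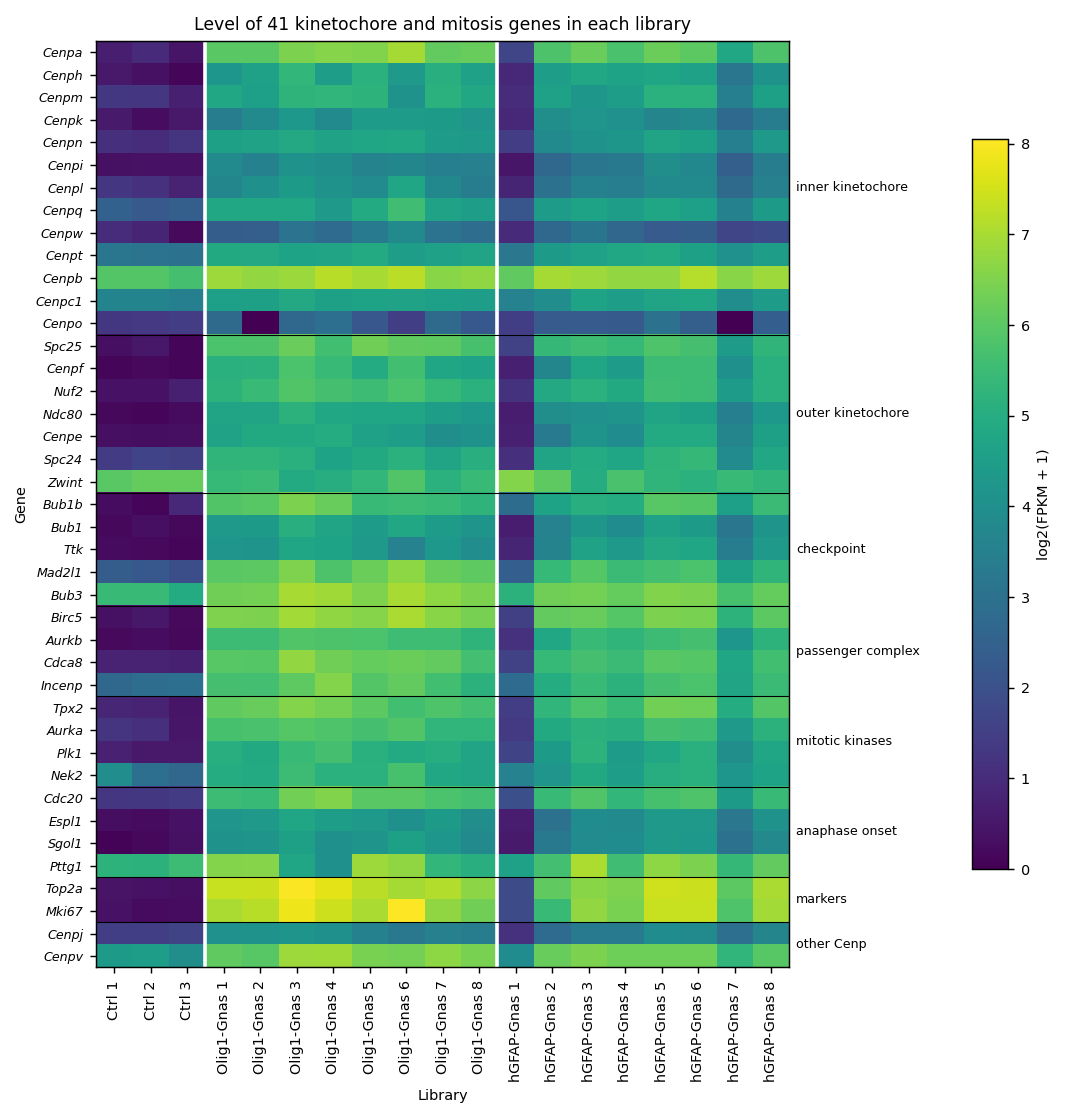
Level of each of the 41 genes (rows, grouped by role) in each of the 19 libraries (columns), as log2(FPKM + 1). The Ctrl columns are dark except for Zwint, Pttg1, Bub3, Cenpb and a few others, and hGFAP-Gnas 1 resembles Ctrl more than its own group.

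Differences were tested with limma on log2(FPKM + 1), with p-values adjusted over all genes tested and a call at an adjusted p under 0.05. In Olig1-Gnas against Ctrl, 38 of the 41 genes rose, 1 fell (Zwint) and 2 were not called (Cenpo and Pttg1). Of all 14183 genes tested in that comparison 59.8% were called, 36.2% as higher and 23.6% as lower. The median log2 difference was 4.01 over the 41 genes and 0.22 over all genes tested, and it ran from -0.78 (Zwint) to 6.92 (Top2a). All 8 Olig1-Gnas libraries were above all 3 Ctrl libraries for 38 of the genes and below them for 1, where 32.2% of all genes tested were separated upward and 21.5% downward.

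In hGFAP-Gnas against Ctrl, 38 of the 41 genes rose, 0 fell and 3 were not called (Cenpo, Pttg1 and Zwint). Of 14305 genes tested 38.9% were called, 26.1% as higher. The median log2 difference was 3.11, against 0.19 for all genes tested, and the groups did not overlap for 27 genes, all upward, where 15.2% of all genes tested were separated upward and 8.56% downward. This count depended on single libraries. Without Ctrl 2, 21 of the 41 were called and 818 genes in all, against 5570 with it; the totals were 1049 without Ctrl 1 and 1924 without Ctrl 3. Of the 38 called genes, 17 lost the call when 1 of the Ctrl libraries was left out, and 9 of these (Bub3, Cenpc1, Cenpj, Cenpl, Cenpm, Cenpq, Cenpv, Cenpw and Spc24) lost it whichever one it was. The other 8 were Cenpi, Cenpt and Incenp (without Ctrl 1 or 2), Nek2 (without Ctrl 2 or 3), and Cenpe, Cenpk, Espl1 and Mad2l1 (without Ctrl 2). In the deeper libraries alone, which hold hGFAP-Gnas 1, limma called 0 of the 41 and 6 of 13872 genes tested. Of the 41, 27 had an unadjusted p under 0.05 there. With hGFAP-Gnas 1 left out of the deeper libraries, limma called 37 of the 41 and 5604 of 13650 genes tested. Without hGFAP-Gnas 1, 39 of the 41 were called in the full comparison, 38 as higher and 1 (Zwint) as lower. In that setting 8164 of 14214 genes tested were called, and the median difference of the 41 was 3.51. Both comparisons use the same 3 Ctrl mice, so they are not independent of each other.

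The base level of a gene in Ctrl limits what its fold can mean. In Ctrl, 21 of the 41 genes were under 1 FPKM in every library and 4 reached it in 1 or 2 libraries. These 25 passed the filter only through knockout libraries, and their rise was in part built into that filter. The other 16 were at 1 FPKM or more in all Ctrl libraries, and among these 13 rose, 1 fell and 2 were not called in Olig1-Gnas, while 13 rose and 3 were not called in hGFAP-Gnas. Their median differences were 2.05 and 1.44 on the log2 scale. Adding 1 to each FPKM value makes the difference of the lowest genes smaller than their plain ratio.

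**Figure D2:**
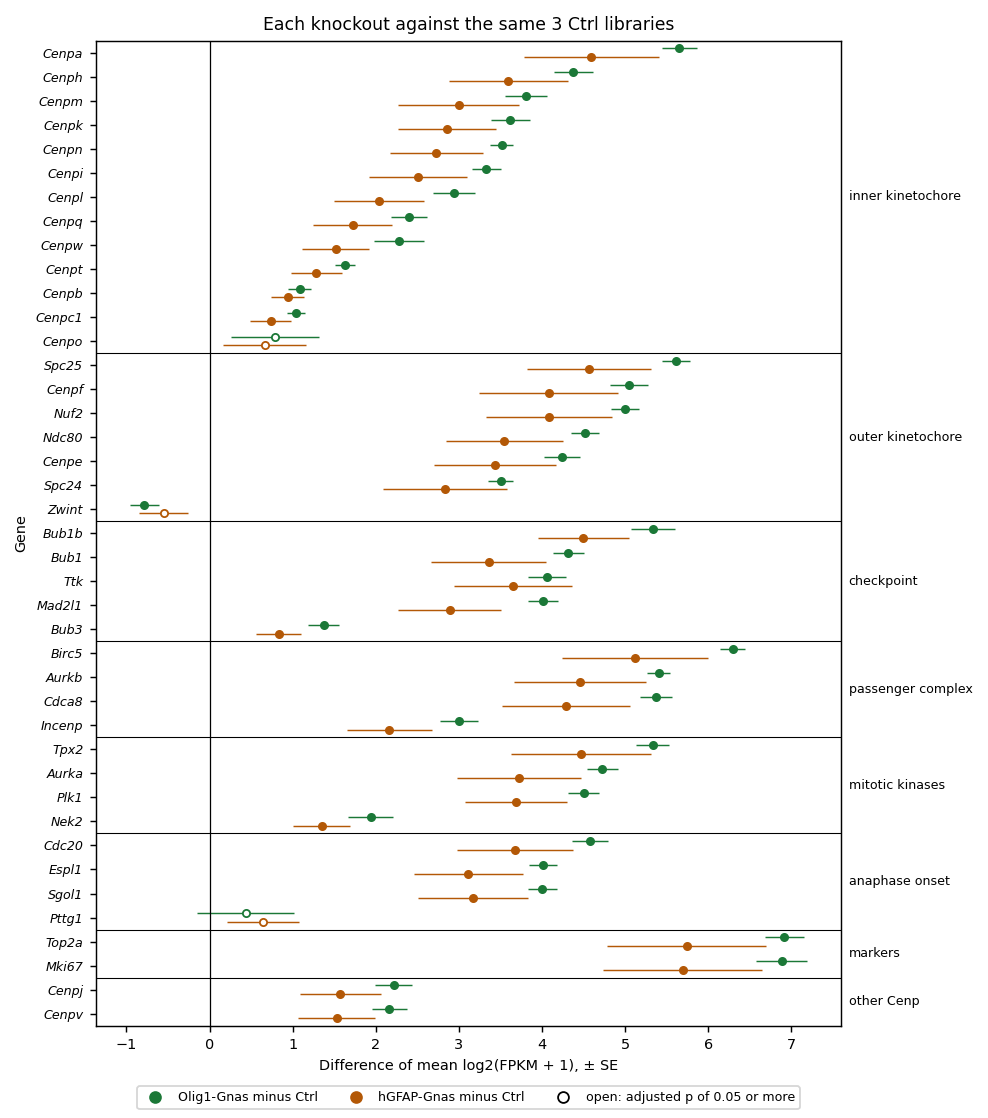
Difference of mean log2(FPKM + 1) from the 3 Ctrl libraries, with its standard error, for each gene in Olig1-Gnas (green) and hGFAP-Gnas (orange). Filled points had an adjusted p under 0.05; the 5 open points are Cenpo and Pttg1 in both knockouts and Zwint in hGFAP-Gnas, and Zwint is the one gene left of 0.

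Promoters are shown, as a description, for a handful of genes that mark the range of responses. Regulation through them was not tested. RefSeq (GRCm38.p6) gave a window of 250 bases before to 50 after the start for 37 of the 41 genes; Aurkb, Incenp, Spc24 and Tpx2 had no entry. Capitals mark TTTGAA, known as the cell cycle genes homology region, and CCAAT, the box bound by the factor NF-Y, on either strand, so that TTCAAA and ATTGG also appear. Top2a, Cdc20, Cenpa and Plk1, each from another role, are risers that hold TTTGAA, and Birc5, with the third largest difference in Olig1-Gnas, is a riser that holds neither motif; the windows shown were picked with these values and motifs known:
Top2a, chr11:99024140-99024439, minus strand: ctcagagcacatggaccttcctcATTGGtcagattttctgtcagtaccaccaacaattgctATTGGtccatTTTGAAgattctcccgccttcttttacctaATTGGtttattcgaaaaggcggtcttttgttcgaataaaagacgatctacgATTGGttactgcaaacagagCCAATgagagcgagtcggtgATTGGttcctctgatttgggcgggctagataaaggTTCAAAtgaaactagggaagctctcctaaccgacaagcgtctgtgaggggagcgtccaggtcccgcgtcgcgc
Cdc20, chr4:118437294-118437593, minus strand: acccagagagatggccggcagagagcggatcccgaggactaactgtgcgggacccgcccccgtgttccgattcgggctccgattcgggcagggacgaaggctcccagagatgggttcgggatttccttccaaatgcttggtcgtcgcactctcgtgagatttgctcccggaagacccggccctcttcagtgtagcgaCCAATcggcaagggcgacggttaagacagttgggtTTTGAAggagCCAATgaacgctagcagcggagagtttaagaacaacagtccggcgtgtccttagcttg
Cenpa, chr5:30666636-30666935, plus strand: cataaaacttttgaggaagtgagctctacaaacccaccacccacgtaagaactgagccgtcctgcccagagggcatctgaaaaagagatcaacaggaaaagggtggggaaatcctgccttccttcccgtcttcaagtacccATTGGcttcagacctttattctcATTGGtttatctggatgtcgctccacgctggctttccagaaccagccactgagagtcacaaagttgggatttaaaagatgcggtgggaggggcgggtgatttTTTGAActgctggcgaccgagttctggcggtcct
Plk1, chr7:122159185-122159484, plus strand: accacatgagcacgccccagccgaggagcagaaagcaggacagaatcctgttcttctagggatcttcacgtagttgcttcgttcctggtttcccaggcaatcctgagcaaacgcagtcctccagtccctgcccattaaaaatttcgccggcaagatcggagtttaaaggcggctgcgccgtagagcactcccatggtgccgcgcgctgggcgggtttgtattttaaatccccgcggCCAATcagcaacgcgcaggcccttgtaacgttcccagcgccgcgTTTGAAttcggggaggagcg
Birc5, chr11:117848987-117849286, plus strand: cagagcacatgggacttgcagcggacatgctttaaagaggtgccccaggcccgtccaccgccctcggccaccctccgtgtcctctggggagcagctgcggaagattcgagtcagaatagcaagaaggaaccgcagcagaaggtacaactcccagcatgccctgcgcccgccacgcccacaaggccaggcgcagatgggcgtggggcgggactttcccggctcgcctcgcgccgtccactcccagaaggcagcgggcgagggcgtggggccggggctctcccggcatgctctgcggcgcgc

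Zwint and Pttg1 are shown because neither was called as higher in either knockout, which also holds for Cenpo, not shown:
Zwint, chr10:72654596-72654895, plus strand: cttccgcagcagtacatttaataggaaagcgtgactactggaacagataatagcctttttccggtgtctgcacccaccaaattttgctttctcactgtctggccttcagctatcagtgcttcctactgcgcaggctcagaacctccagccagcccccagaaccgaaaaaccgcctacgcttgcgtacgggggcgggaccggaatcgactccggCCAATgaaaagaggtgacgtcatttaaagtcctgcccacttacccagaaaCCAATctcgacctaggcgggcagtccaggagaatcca
Pttg1, chr11:43425932-43426231, minus strand: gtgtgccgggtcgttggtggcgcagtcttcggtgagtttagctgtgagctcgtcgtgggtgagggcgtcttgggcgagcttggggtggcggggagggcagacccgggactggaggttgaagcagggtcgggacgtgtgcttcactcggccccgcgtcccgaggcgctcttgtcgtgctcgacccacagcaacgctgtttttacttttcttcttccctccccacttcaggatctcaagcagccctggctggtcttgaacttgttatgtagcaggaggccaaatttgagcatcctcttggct

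Positions are counted from the annotated start to the first base of the motif in the window. TTTGAA lay 18 bases before the start of Cdc20, 23 and 179 before that of Top2a, 16 after that of Cenpa and 30 after that of Plk1. Cdc20 had CCAAT at 53 and 8 bases before its start, and Top2a held 6 copies of it. The Zwint window had 2 copies of CCAAT and none of TTTGAA, and the Pttg1 window had neither. Steep risers could lack them as well: besides Birc5, the windows of Nuf2 and Mad2l1 held neither, and those of Bub1, Cenpe, Cenph and Sgol1 held CCAAT without TTTGAA. Of the 37 genes with a window, 17 (45.9%) held TTTGAA, 27 (73%) held CCAAT and 16 (43.2%) held both. Among the 27025 mouse genes with such a window the shares were 20.2, 41.1 and 8.97%. Within 50 bases of the start, TTTGAA was found in 15 of the 37 (40.5%) and in 5.72% of all genes. Anywhere in the window, TTTGAA was present in 14 of 23 genes that were under 1 FPKM in at least 1 Ctrl library. It was present in 3 of 14 of the others. Within 50 bases of the start these counts were 12 of 23 and 3 of 14. Matches on either strand were allowed to overlap, so overlapping copies would each count, and a match describes the letters only.

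At the inner kinetochore, 12 of 13 genes rose in each knockout, and Cenpa moved most. Cenpa, the histone H3 variant that marks the centromere (chromosome 5, 30969274 to 30977199 in mm9), stood at 0.593, 0.970 and 0.357 FPKM in Ctrl. In Olig1-Gnas it was 62.3 at the lowest, 78.9 at the median and 123 at the highest library, and in hGFAP-Gnas 2.23, 55.3 and 74.2. Every knockout library was above every Ctrl library, and hGFAP-Gnas 1 was the lowest, with the next at 26.8. The log2 difference was 5.65 ± 0.21 (SE, limma adjusted p = 1.83e-09) in Olig1-Gnas and 4.59 ± 0.81 (adjusted p = 0.00699) in hGFAP-Gnas.

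The called partners of CENP-A in the constitutive network rose by different amounts. Their order depends in part on the 1 added to each FPKM value, which shrinks the differences of genes low in Ctrl most. In Olig1-Gnas the log2 difference was 4.38 for Cenph, 3.81 for Cenpm, 3.62 for Cenpk, 3.52 for Cenpn, 3.33 for Cenpi and 2.94 for Cenpl. It was 2.40 for Cenpq, 2.28 for Cenpw and 1.63 for Cenpt, whose products form a DNA-binding histone-fold pair in the case of Cenpw and Cenpt. The corresponding values in hGFAP-Gnas ran from 1.29 (Cenpt) to 3.59 (Cenph). Cenpb, whose protein binds a box in centromeric repeats, and Cenpc1, which links CENP-A nucleosomes to the outer kinetochore, were already at 50.6 to 58.0 and 10.1 to 11.3 FPKM in Ctrl. They rose by the least of the called inner genes, 1.08 ± 0.14 and 1.04 ± 0.11 in Olig1-Gnas and 0.94 ± 0.20 and 0.74 ± 0.25 in hGFAP-Gnas, where Cenpc1 had an adjusted p of 0.0372. With quantile normalization Cenpc1 was not called in hGFAP-Gnas (0.55, adjusted p = 0.0679), and it was not called when any 1 Ctrl library, or any 1 of hGFAP-Gnas 3, 4, 5, 6 and 8, was left out.

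Cenpo, another subunit of that network, was the inner gene that was not called. Its Ctrl levels were 1.44, 1.52 and 1.73 FPKM. In Olig1-Gnas it was 0, 4.59 and 6.74 at the lowest, median and highest library, and in hGFAP-Gnas 0, 3.94 and 7.05. The other 7 libraries of each knockout lay above every Ctrl library, and the 0 values were those of Olig1-Gnas 2 and hGFAP-Gnas 7. The log2 difference was 0.79 ± 0.53 (adjusted p = 0.218) in Olig1-Gnas and 0.67 ± 0.50 (adjusted p = 0.293) in hGFAP-Gnas. With those zeros taken as missing it became 1.09 (adjusted p = 0.00845) and 0.96 (adjusted p = 0.0205). The Cenpo locus (chromosome 12, 4133396 to 4240123) overlaps those of Adcy3 and 2410017P09Rik in the tables, so fragments there may be shared between genes.

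At the outer kinetochore, 6 of 7 genes rose in each knockout and Zwint did not. Spc25, a subunit of the NDC80 complex (chromosome 2, 69031951 to 69044247), was at 0.267, 0.426 and 0.0872 FPKM in Ctrl. It stood at 47.8, 60.0 and 77.6 at the lowest, median and highest Olig1-Gnas library and at 2.01, 40.4 and 55.9 in hGFAP-Gnas. No knockout library overlapped Ctrl, and the difference was 5.61 ± 0.17 (adjusted p = 6.77e-10) and 4.56 ± 0.75 (adjusted p = 0.00609). The other subunits of the complex were also called in both knockouts, Nuf2 at 4.99 and 4.09, Ndc80 at 4.52 and 3.55 and Spc24 at 3.50 and 2.83. Cenpf, a large protein of the outer layer, rose by 5.04 and 4.08, and Cenpe, a kinesin that moves chromosomes along microtubules, by 4.24 and 3.44. Spc24 was the only NDC80 gene at 1 FPKM or more in all Ctrl libraries, at 1.63 to 2.08, and in hGFAP-Gnas 1 it was at 1.10, below all of Ctrl. The Spc24 call in hGFAP-Gnas was lost whichever Ctrl library was left out (adjusted p = 0.0587 to 0.0666).

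Zwint went the other way in Olig1-Gnas. Its product joins the kinetochore scaffold to the recruiters of dynein and checkpoint proteins, and it is also known in neurons as a partner of the synaptic protein SNAP25. Zwint (chromosome 10, 72117642 to 72132537) stood at 63.0, 70.6 and 70.0 FPKM in Ctrl, the highest Ctrl level of the 41 genes. In Olig1-Gnas it was 29.0, 40.4 and 57.1 at the lowest, median and highest library, and in hGFAP-Gnas 30.4, 40.4 and 92.4. All 8 Olig1-Gnas libraries were below all Ctrl libraries, while in hGFAP-Gnas 1 library was above Ctrl (hGFAP-Gnas 1), 1 within its range (65.1, hGFAP-Gnas 2) and 6 below. Zwint fell by 0.78 ± 0.18 on the log2 scale in Olig1-Gnas (adjusted p = 0.00236). The difference in hGFAP-Gnas was -0.55 ± 0.29 (adjusted p = 0.150), and -0.69 ± 0.21 without hGFAP-Gnas 1 (adjusted p = 0.0150), which passed the threshold.

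Genes of the spindle checkpoint rose in both knockouts, all 5 of 5. Bub1b, which encodes the BubR1 subunit of the complex that holds CDC20 inactive (chromosome 2, 118423946 to 118467328), was at 0.194, 0.109 and 0.876 FPKM in Ctrl. It reached 36.4, 51.4 and 88.0 at the lowest, median and highest Olig1-Gnas library and 6.17, 31.8 and 61.0 in hGFAP-Gnas. All knockout libraries were above Ctrl, including hGFAP-Gnas 1, and the difference was 5.33 ± 0.26 (adjusted p = 1.60e-08) and 4.50 ± 0.54 (adjusted p = 0.00236). The kinases Bub1 and Ttk, which start checkpoint signaling at the kinetochore, rose by 4.32 and 4.06 in Olig1-Gnas and by 3.36 and 3.65 in hGFAP-Gnas. Mad2l1, which encodes the MAD2 protein that binds CDC20, rose by 4.01 and 2.89 from 2.83 to 4.16 FPKM in Ctrl.

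Bub3 moved least of the checkpoint genes. It encodes the protein that docks BUB1 and BubR1 at the kinetochore scaffold (chromosome 7, 138703904 to 138715412), and Ctrl held 42.4, 42.0 and 30.1 FPKM. Olig1-Gnas had 78.2, 95.4 and 127 at the lowest, median and highest library, and hGFAP-Gnas 35.5, 74.2 and 91.0. Olig1-Gnas did not overlap Ctrl, whereas hGFAP-Gnas 1 lay within the Ctrl range and the other 7 were at 51.6 or more. The difference was 1.37 ± 0.18 (adjusted p = 5.83e-05) in Olig1-Gnas and 0.83 ± 0.27 (adjusted p = 0.0312) in hGFAP-Gnas. In hGFAP-Gnas it was not called when any 1 Ctrl library, or any 1 of hGFAP-Gnas 4, 5, 6 and 8, was left out.

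The chromosomal passenger complex, which corrects faulty attachments and later acts in cytokinesis, rose in all 4 of its genes. Birc5, encoding survivin (chromosome 11, 117710550 to 117717057), stood at 0.294, 0.432 and 0.142 FPKM in Ctrl. It was 83.9, 96.4 and 131 at the lowest, median and highest Olig1-Gnas library and 1.86, 66.7 and 87.2 in hGFAP-Gnas. No library of either knockout overlapped Ctrl, and 7 of the 8 hGFAP-Gnas libraries were at 36.2 or more. The difference was 6.30 ± 0.15 (adjusted p = 1.84e-10) and 5.12 ± 0.88 (adjusted p = 0.00685). Aurkb, the kinase of the complex, rose by 5.40 and 4.46, and Cdca8, which encodes borealin, by 5.37 and 4.29.

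Incenp, the scaffold of the same complex, started from a higher base. It stood at 5.49, 6.39 and 6.68 FPKM in Ctrl, at 35.2, 54.2 and 92.4 at the lowest, median and highest Olig1-Gnas library, and at 6.09, 38.7 and 53.2 in hGFAP-Gnas. The single hGFAP-Gnas library inside the Ctrl range was again hGFAP-Gnas 1, with the next at 24.8. The difference was 3.00 ± 0.23 (adjusted p = 5.68e-07) and 2.16 ± 0.51 (adjusted p = 0.0124). The hGFAP-Gnas call was lost without Ctrl 1 (adjusted p = 0.0578) and without Ctrl 2 (adjusted p = 0.0536).

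The 4 genes of mitotic kinases at centrosome and spindle, including the activator Tpx2, all rose in both knockouts. Tpx2, which activates AURKA on spindle microtubules (chromosome 2, 152673699 to 152721057), was at 0.839, 0.723 and 0.376 FPKM in Ctrl. It was 47.6, 65.8 and 92.2 at the lowest, median and highest Olig1-Gnas library and 1.76, 47.7 and 80.4 in hGFAP-Gnas, without overlap. The difference was 5.33 ± 0.20 (adjusted p = 2.25e-09) and 4.47 ± 0.84 (adjusted p = 0.00741). Aurka itself rose by 4.72 and 3.72, and Plk1, a kinase with tasks from mitotic entry to cytokinesis, by 4.50 and 3.69.

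Nek2, a kinase that helps to separate the centrosomes, rose less than the others. It was at 14.4, 6.69 and 5.27 FPKM in Ctrl, at 25.1, 32.6 and 51.2 at the lowest, median and highest Olig1-Gnas library, and at 10.8, 23.1 and 33.8 in hGFAP-Gnas. Ctrl 1 was above hGFAP-Gnas 1 and below all other knockout libraries. The difference was 1.94 ± 0.27 (adjusted p = 8.37e-05) and 1.35 ± 0.35 (adjusted p = 0.0155). The hGFAP-Gnas call was lost without Ctrl 2 (adjusted p = 0.0693) and without Ctrl 3 (adjusted p = 0.0742).

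Of the 4 genes that act at anaphase onset, 3 rose in both knockouts. Cdc20, the activator of the anaphase-promoting complex that the checkpoint restrains (chromosome 4, 118100697 to 118109948), was at 1.41, 1.45 and 1.64 FPKM in Ctrl. It was 42.5, 58.0 and 90.5 at the lowest, median and highest Olig1-Gnas library and 2.93, 42.7 and 57.9 in hGFAP-Gnas, so every knockout library was above Ctrl. The difference was 4.58 ± 0.22 (adjusted p = 1.10e-08) and 3.68 ± 0.70 (adjusted p = 0.00770). The Cdc20 locus overlaps that of Elovl1 in the tables; 39 of the 41 loci overlap no other listed gene. Espl1, which encodes separase, rose by 4.01 and 3.11, and Sgol1, which encodes the shugoshin that guards centromeric cohesin, by 4.01 and 3.17.

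Pttg1, which encodes securin, the inhibitor of separase, was not called in either knockout and varied widely between libraries. It stood at 36.2, 35.2 and 44.5 FPKM in Ctrl (chromosome 11, 43233749 to 43239750). In Olig1-Gnas it was 15.5 at the lowest, 66.6 at the median and 115 at the highest library, and in hGFAP-Gnas 23.4, 59.0 and 132. Olig1-Gnas 1, 2, 5 and 6, at 94.1, 96.0, 115 and 104, were above Ctrl, Olig1-Gnas 7 was inside its range at 39.1, and Olig1-Gnas 3, 4 and 8 were below it at 25.6, 15.5 and 31.8. In hGFAP-Gnas 6 libraries were above Ctrl, 1 was inside its range and hGFAP-Gnas 1 was below. The difference was 0.43 ± 0.59 (adjusted p = 0.543) in Olig1-Gnas and 0.64 ± 0.43 (adjusted p = 0.244) in hGFAP-Gnas. Without hGFAP-Gnas 1 the latter was 0.83 ± 0.33 (limma adjusted p = 0.0511), just over the threshold.

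**Figure D3:**
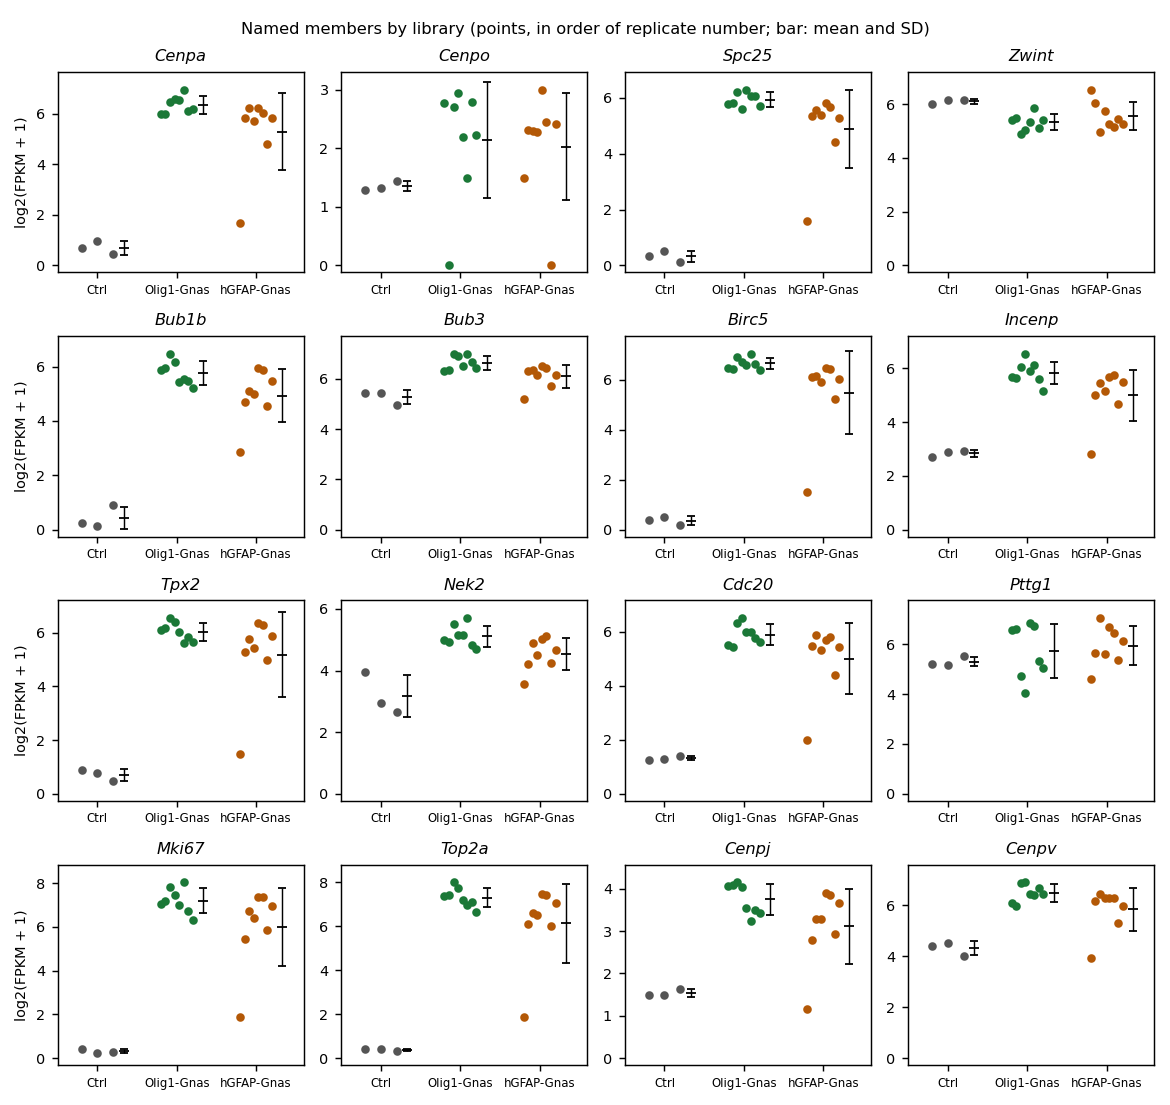
Level of 16 genes as log2(FPKM + 1), 1 point for each library in order of replicate number, with the mean and SD of each group (3 Ctrl, 8 Olig1-Gnas, 8 hGFAP-Gnas). The first hGFAP-Gnas point is the low one in most panels, the Zwint points of Olig1-Gnas all lie below Ctrl, and the Pttg1 points spread to both sides of Ctrl.

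The proliferation markers had the largest differences of the 41 genes. Mki67, whose product coats mitotic chromosomes (chromosome 7, 142881470 to 142908062), was at 0.325, 0.188 and 0.215 FPKM in Ctrl. It was 78.7, 137 and 264 at the lowest, median and highest Olig1-Gnas library and 2.70, 95.3 and 165 in hGFAP-Gnas. Top2a, a topoisomerase that untangles sister DNA (chromosome 11, 98854260 to 98885503), was at 0.343, 0.318 and 0.262 FPKM in Ctrl, at 99.4, 156 and 255 in Olig1-Gnas and at 2.69, 92.9 and 176 in hGFAP-Gnas. Neither gene overlapped Ctrl in any knockout library. Mki67 rose by 6.89 ± 0.31 (adjusted p = 6.98e-09) and 5.69 ± 0.95 (adjusted p = 0.00628), and Top2a by 6.92 ± 0.23 (adjusted p = 1.43e-09) and 5.74 ± 0.96 (adjusted p = 0.00628).

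The remaining genes carry a Cenp symbol and rose in both knockouts. Cenpj, whose product acts in centriole assembly, was at 1.80, 1.82 and 2.12 FPKM in Ctrl, at 8.39, 13.0 and 16.9 at the lowest, median and highest Olig1-Gnas library and at 1.22, 8.85 and 14 in hGFAP-Gnas. Cenpv was at 20.02, 21.8 and 14.9 in Ctrl, at 60.7, 85.6 and 118 in Olig1-Gnas and at 14.2, 73.6 and 86.5 in hGFAP-Gnas. For both, hGFAP-Gnas 1 was below all of Ctrl and the other 15 knockout libraries were above it. Cenpj rose by 2.22 ± 0.22 (adjusted p = 6.26e-06) and 1.57 ± 0.48 (adjusted p = 0.0277), and Cenpv by 2.17 ± 0.21 (adjusted p = 4.25e-06) and 1.53 ± 0.46 (adjusted p = 0.0265). In hGFAP-Gnas both calls were lost whichever Ctrl library was left out, with adjusted p-values of 0.0756 to 0.0905 for Cenpj and 0.0720 to 0.0972 for Cenpv, and that of Cenpj also with quantile normalization (1.27, adjusted p = 0.0509).

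Genes of the same pathways outside the rule mostly rose too, where 36.2% of all genes tested rose in Olig1-Gnas and 26.1% in hGFAP-Gnas. Of 16 further kinetochore assembly genes tested, 16 rose in Olig1-Gnas and 15 in hGFAP-Gnas, among them Pmf1 of the MIS12 complex (3.96 and 3.25) and Kntc1 of the ROD complex (3.92 and 3.21). Of 18 genes of the checkpoint and the anaphase-promoting complex, 16 and 12 rose, led by Ube2c, the ubiquitin-conjugating enzyme of the complex (6.23 and 5.19). Anapc2 and Anapc11, its catalytic subunits, had differences of 0.20 and 0.30 in Olig1-Gnas and were not called in either knockout. Of 16 cohesin and condensin genes, 16 and 12 rose, with Ncaph at 4.95 and 4.04. Of 19 genes of mitotic entry and cytokinesis, 19 rose in each, with Ccnb1 at 6.05 and 4.86, Ccna2 at 5.98 and 4.96 and Cdk1 at 5.79 and 4.61. In these 4 lists no gene fell in either comparison with Ctrl, and between the knockouts limma called 0 of them.

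Markers of several other cell types also differed from Ctrl. The shares of all genes tested that fell, to read these counts against, were 23.6% in Olig1-Gnas and 12.8% in hGFAP-Gnas. Of 14 mature granule neuron genes tested, 13 fell in Olig1-Gnas and 10 in hGFAP-Gnas, and their summed level was 4056 to 4887 FPKM in Ctrl, against 234 to 1293 (Olig1-Gnas) and 378 to 3640 (hGFAP-Gnas). Of 13 Purkinje cell genes, 12 and 11 fell, and 0 and 1 rose. Of 13 mature oligodendrocyte genes, 12 and 2 fell, the latter near the share of all genes. Of 15 microglia and macrophage genes, 11 and 13 rose. The sums of the 15 were 90.5 to 135 FPKM in Ctrl, against 723 to 2572 (Olig1-Gnas) and 186 to 1600 (hGFAP-Gnas). Tmem119 and P2ry12, markers of resident microglia, were not called in either knockout, and in hGFAP-Gnas they were the only 2 not called. Tmem119 was at most 4.05 FPKM in Ctrl, and every hGFAP-Gnas library except hGFAP-Gnas 1 lay at 6.57 to 11.9. The P2ry12 median was 10.2 in hGFAP-Gnas against 4.11 in Ctrl, though a library other than hGFAP-Gnas 1 was listed at 0. In Olig1-Gnas both genes spread to either side of Ctrl. Of 14 granule neuron progenitor genes, 11 rose and 1 fell in each knockout. Of 10 endothelial and pericyte genes, 2 fell in Olig1-Gnas (Flt1, an endothelial receptor, and Pdgfrb, a pericyte receptor) and 0 in hGFAP-Gnas, no more than the share of all genes, of 6 choroid plexus genes 1 and 0 rose, and of 4 blood genes tested none was called. Of 8 T lymphocyte genes 2 could be tested: Cd4, which macrophages can also express, rose and Thy1, which neurons also express, fell in both. The part of these cell types in the levels of the mitotic genes was not tested.

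Within each knockout, the lowest mitotic levels came with the highest granule neuron sums. The median of the 41 genes was 1.82 FPKM in hGFAP-Gnas 1, 16.0 in hGFAP-Gnas 7 and 23.3 in hGFAP-Gnas 2, and the granule neuron sums of these 3 libraries were 3640, 2189 and 2102. In Olig1-Gnas the lowest median, 26.8 in Olig1-Gnas 8, came with the highest granule neuron sum of that group, 1293. The order was not kept throughout. The sum was lowest of its group in hGFAP-Gnas 3, at 378, with a median of 29.7. The medians of hGFAP-Gnas 5 and 6 were higher, 37.0 and 34.5, with sums of 590 and 571. In hGFAP-Gnas 1, 29 of the 41 genes were above every Ctrl library. Among these was Zwint, at 92.4 FPKM, which was lower than Ctrl in Olig1-Gnas. Some were above by little, such as Mad2l1 at 4.26 against at most 4.16 in Ctrl. The 12 that were not included Bub3, Incenp, Nek2, Pttg1 and Spc24, and the remaining 7 were Cenp genes. The other knockout libraries had 38 to 40 of the 41 above every Ctrl library. The share of all genes above every Ctrl library was not counted for single libraries, so these counts have no background to be read against.

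**Figure D4:**
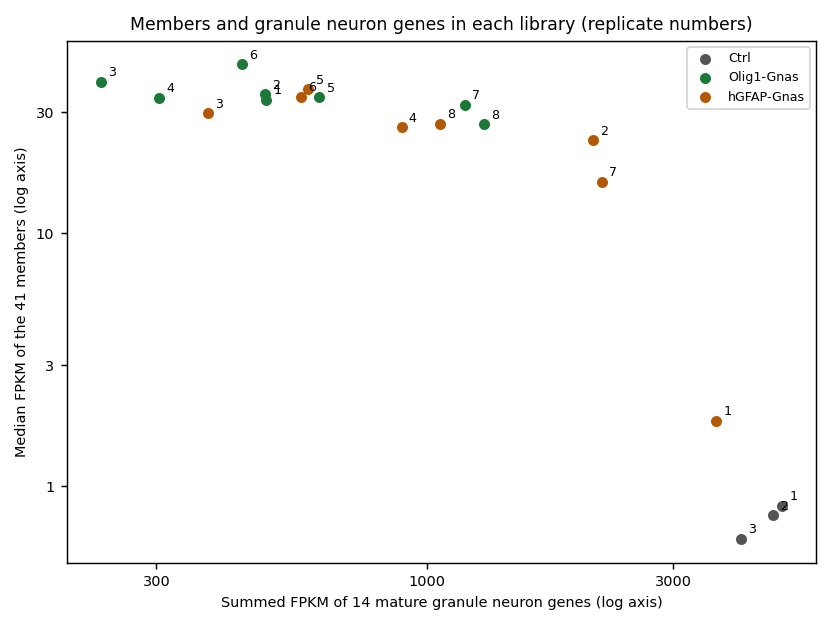
Median FPKM of the 41 genes against the summed FPKM of 14 mature granule neuron genes, both on log axes, 1 point for each library with its replicate number. The 3 Ctrl libraries lie at the lower right, hGFAP-Gnas 1 is next to them, and hGFAP-Gnas 7 and 2 lie between it and the other knockout libraries.

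Compared directly, none of the 41 genes passed the test between the knockouts, though most were higher in Olig1-Gnas. In Olig1-Gnas against hGFAP-Gnas limma called 0 of 41 (0.41% of all 14386 genes tested), with adjusted p-values from 0.153 to 0.897, and 18 had an unadjusted p under 0.05, all of them higher in Olig1-Gnas. The median difference, Olig1-Gnas minus hGFAP-Gnas, was 0.82 on the log2 scale, and 39 of 41 differences were positive; over all genes tested the median was 0.01. Without hGFAP-Gnas 1 the median difference was 0.44, 38 were positive, 23 had an unadjusted p under 0.05 and 0 were called, with a lowest adjusted p of 0.0746 (Mad2l1). The shares of all genes with an unadjusted p under 0.05 or a positive difference were not counted. The 41 genes come from the same libraries, so their counts are not separate events. In none of the 41 did the 2 groups separate without overlap, where 0.306% of all genes tested were separated upward and 0.292% downward.

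Single genes show how wide these differences were. Mki67 had the largest, 1.19 with a 95% interval of -0.11 to 2.50, and Top2a had 1.17 (-0.11 to 2.45). Without hGFAP-Gnas 1 they were 0.61 (-0.05 to 1.26) and 0.57 (0.05 to 1.08). Mad2l1 had 1.12 (0.30 to 1.94) and then 0.74 (0.36 to 1.12). Cenpb had 0.14 (-0.16 to 0.44). The negative differences were those of Zwint, -0.23 (-0.67 to 0.20), and Pttg1, -0.21 (-1.13 to 0.72). Ttk changed sign, from 0.41 to -0.02, when hGFAP-Gnas 1 was left out. Y-linked Ddx3y was at 1 FPKM or more in 2 of the Olig1-Gnas and 7 of the hGFAP-Gnas libraries. With it as a term the median difference was 0.60 and 0 of the 41 genes had an unadjusted p under 0.05.

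**Figure D5:**
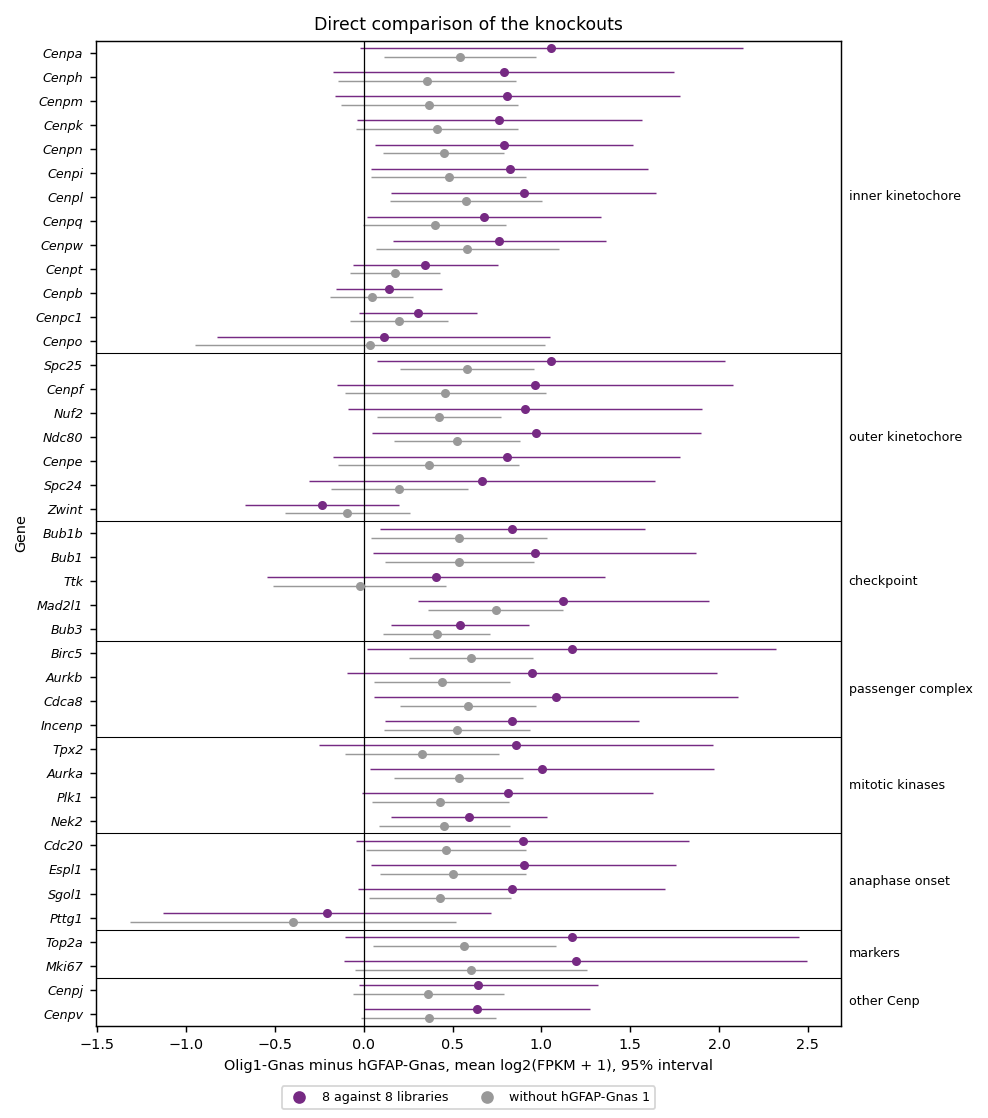
Difference of mean log2(FPKM + 1), Olig1-Gnas minus hGFAP-Gnas, with its 95% interval for each gene, over 8 against 8 libraries (purple) and without hGFAP-Gnas 1 (grey). Nearly all points lie right of 0, and the grey points lie closer to it than the purple ones, except those of Pttg1.

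Relative to one another, the genes differed in how steady they were across knockout animals. Each level was divided by the median of the 41 genes in its library, over the 15 knockout libraries other than hGFAP-Gnas 1. FPKM is per length, so the ratios can be set side by side. Of the 40 genes with a span, 19 varied by less than 2-fold between their lowest and highest ratio and 21 by 2-fold or more. The steadiest were Nuf2, at 1.07 to 1.46 times the median, Birc5 at 2.27 to 3.13, Aurka at 1.19 to 1.64 and Cenpn at 0.542 to 0.749. Pttg1 varied most, from 0.453 to 4.43 times, a 9.77-fold span, followed by Zwint (0.734 to 2.79), Ttk (0.232 to 0.796), Cenpm (0.348 to 1.12) and Mki67 (1.84 to 5.76). Cenpo has no such span because it was listed at 0 in 2 of those libraries. By its median ratio Top2a was the most abundant, at 4.28 times, ahead of Cenpb (3.88) and Mki67 (3.86), and their ranges overlapped. Cenpw, at 0.186 times, was the second lowest after Cenpo (0.140), and their ranges overlapped as well.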

How the data were processed

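Cerebellar RNA of 19 mice was analysed from 2 deposited tables of gene FPKM, one per knockout, both of which repeat the 3 Ctrl libraries. FPKM was computed by the authors; the submitters' processing notes name TopHat, Cufflinks and mm9, and versions, annotation and strandedness are not given in the sources used here. Ctrl 2 and 3 are identical between tables; Ctrl 1 differs in 5106 genes (10 of the 41, by at most 0.0437 FPKM). Each comparison with Ctrl used its own table, and the knockouts were joined by symbol. Loci are the tables' mm9 coordinates, and promoters are RefSeq windows of GRCm38.p6. The genes and lists were chosen with earlier results of these data known.

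Genes at 1 FPKM or more in at least 3 libraries of a comparison were tested with limma 3.58.1 in R 4.3.3 on log2(FPKM + 1), with trend and robust moderation, two-sided, Benjamini-Hochberg adjusted, after a check on simulated data. SE is that of the difference; intervals are 95%. Depth in reads is unknown, so values near 0 rest on few fragments. The labels describe separate mice, so p-values set a group difference against the spread between animals. Values were given by library for the highest and lowest gene of each role, every gene not called or lower in a knockout, Mki67 and Top2a. The value of 1 gene of the further lists is not reported here. The T lymphocyte and other marker lists come from general knowledge. Alternatives changed offset, filter, scaling, moderation, zeros, block, Y-linked term, depth class and libraries; leaving hGFAP-Gnas 1 out of the deeper class was added after seeing the data.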

Additional observations from a re-analysis of the deposited data

Results flagged for a closer look

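In hGFAP-Gnas, 1 library lay far below the other 7 for 32 of the 41 genes, and it was hGFAP-Gnas 1 each time. The measure was Dixon's ratio on log2(FPKM + 1), at its 95% limit of 0.526 for 8 values. The log scale widens gaps at low values, so the count holds for that scale and not for plain FPKM. In Olig1-Gnas no library was distant for any of them. Chance alone marks about 1 in 20 groups, and the 32 values come from 1 library, so they are not separate events. At the inner kinetochore its levels were 2.23 FPKM for Cenpa, 0.906 for Cenph, 0.404 for Cenpi, 0.845 for Cenpk, 0.773 for Cenpl, 1.02 for Cenpm, 1.77 for Cenpn and 3.50 for Cenpq. At the outer kinetochore they were 0.616 for Cenpe, 0.634 for Cenpf, 0.524 for Ndc80, 1.28 for Nuf2, 1.10 for Spc24 and 2.01 for Spc25. Checkpoint genes stood at 0.537 for Bub1, 6.17 for Bub1b, 4.25 for Mad2l1 and 0.764 for Ttk, and passenger genes at 1.19 for Aurkb, 1.86 for Birc5, 2.003 for Cdca8 and 6.09 for Incenp. Among kinase genes it held 1.60 FPKM of Aurka, 2.11 of Plk1 and 1.76 of Tpx2, and among anaphase genes 2.93 of Cdc20, 0.550 of Espl1 and 0.482 of Sgol1. The rest were Cenpj at 1.22, Cenpv at 14.2, Mki67 at 2.70 and Top2a at 2.69. Its granule neuron sum of 3640 FPKM was the highest of the 16 knockout libraries, and the part of this in the low mitotic levels was not tested.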

How the results depend on the processing

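Of the 41 genes, 39 or 40 were called in Olig1-Gnas and 0 between the knockouts under every alternative. In hGFAP-Gnas 38 were called, 21 to 39 when 1 library was left out, and 0 in the deeper libraries alone. All genes called numbered 8485 in Olig1-Gnas (5141 in the shallower libraries, which hold 1 Ctrl library; 6971 to 9546 without 1 library), 5570 in hGFAP-Gnas (6 in the deeper and 2277 in the shallower libraries; 818 to 8164 without 1 library) and 59 between the knockouts. The last became 35 with a filter of 5 FPKM, 178 in 1 fit over 3 groups, 3 with the Y-linked term, 3 in the deeper libraries, 3 in these without hGFAP-Gnas 1, and 11 to 104 without 1 library. Same-numbered libraries deviated together weakly at most (4 of 14 correlations over 0.1, range -0.17 to 0.25). Such correlations cannot decide whether the numbers pair animals, and the labels name no pairs. With the number as a replicate block, limma called 0 of the 41 and 0 genes in hGFAP-Gnas (27 of the 41 at an unadjusted p under 0.05), a fit that only libraries 1 to 3 inform, and 25 genes between the knockouts. Differences that changed sign were Pttg1 in Olig1-Gnas, -0.020 against the lone shallower Ctrl library, and 3 genes between the knockouts: Pttg1, 0.26 in the deeper libraries and 0.036 without Olig1-Gnas 4 (-0.40 to 0.036 without 1 library); Cenpo, -0.18 without hGFAP-Gnas 7, -0.12 in the deeper libraries without hGFAP-Gnas 1 and -0.0039 without Olig1-Gnas 4 (-0.18 to 0.42 without 1 library); and Ttk, -0.022 without hGFAP-Gnas 1 (-0.022 to 0.55 without 1 library) and -0.15 in the deeper libraries without it. The cause was not tested. In the shallower class Ctrl 3 is the only Ctrl library and is assumed to vary like the knockouts. Depth limits the Ctrl levels under 1 FPKM.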
